A study of Homo sapiens with 4 samples.

Results

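The 49 genes described here are the enzymes that place or remove methyl groups on histone lysines, together with the core subunits of the complexes some of them work in. They were found by symbol among the 57815 genes of a deposited RNA-Seq table, in 50 rows because KMT2B has 2. RNA-Seq was performed on 2 human breast cancer cell lines, MDA-MB-231 and LM2-4175, with 4 libraries in all, 2 of each line. MDA-MB-231 is a triple-negative line, and LM2-4175 is a derivative of it selected for growth in the lung. Both were untreated and grown under the same conditions, in DMEM with FBS. Each is 1 cell line, so what separates them may be particular to these 2 lines. The table holds 1 value for each gene and cell line, as FPKM (fragments scaled to transcript length and to sequencing depth), with a lower and an upper bound from the authors. The libraries were pooled into that value, so no spread between libraries and no test between the lines could be computed.

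Methylation of a histone lysine acts as a label that other proteins read. H3K4 methylation marks promoters and enhancers in use, H3K36 and H3K79 methylation mark transcribed gene bodies, and H3K9 and H3K27 methylation mark silenced chromatin. Methyltransferases, most of which carry a SET domain, write these marks, and demethylases of the LSD and JmjC families erase them. Of the 49 genes, 23 were grouped as methyltransferases, each assigned a histone site, which is not equally well settled for all. There were 6 complex subunits, 16 demethylases and 4 proteins with another or an unsettled substrate. Several of these enzymes are known to be altered in cancer, EZH2 and WHSC1 among them.

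A gene was tested, in the sense used here, where its status was given as usable in both lines and its mean was at least 0.5 FPKM, which left 13911 genes and 48 of the 49 members. The change is the log2 ratio of FPKM + 1 in LM2-4175 over FPKM + 1 in MDA-MB-231. A gene was called where that change reached 1.5-fold and the authors' bounds of the 2 cell lines did not overlap. This is a description of 2 values with their bounds and not a test over replicates. EHMT2, which encodes the H3K9 methyltransferase G9a, was the member left out, because it was listed at 0 in both lines. An exact 0 in such a table can be a failed estimate, so nothing was read from it.

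The hormone receptor genes ESR1 and PGR were under 0.05 FPKM in both lines, and ERBB2 was at 34.95 FPKM in MDA-MB-231 against 22.8 FPKM in LM2-4175. Of the white blood cell genes given here CD3E was listed at 0, PTPRC and LYZ were under 0.5 FPKM, and CD14 was at 1.17 against 1.75 FPKM. The endothelial genes VWF and CDH5 were under 0.1 FPKM, and PECAM1 was not analysed here. Of the 5 breast epithelial markers 4 were called lower in LM2-4175, with KRT19 at 250.3 FPKM in MDA-MB-231 and 36.3 FPKM in LM2-4175. Of the 4 mesenchymal markers only SPARC was called higher, at 13.6 against 232 FPKM. VIM (change 0.38), ZEB1 (0.62) and AXL (-0.32) were not called, and their signs differed. The lines therefore differed in these markers beside every value below, and the part of that in the changes of the histone enzymes was not tested.

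Few of the histone methylation enzymes differed between the lines by this rule. None of the 48 was called higher in LM2-4175 and 2 were called lower, WDR5 and SUV39H1, where 9.27% of all genes tested were called (4.67% higher and 4.61% lower). The median change of the 48 members was -0.07 on the log2 scale, and that of all genes tested was -0.04. There were 20 members with a higher and 28 with a lower value in LM2-4175, and lower values were found for 54.5% of all genes tested. Rescaling moved this balance: when each line was scaled to the same FPKM sum (TPM), 25 members had higher and 23 lower values and the median was 0.01. Among all genes tested, 47.5% had lower values under TPM scaling. By size alone 4 members passed 1.5-fold, which is 8.33% of them, against 22.1% of all genes. Among genes with a mean of at least 5 FPKM, where 44 of the members lie, 3 members passed 1.5-fold and 18.8% of all genes did, and 8.03% of these genes were called. The 4 members were WDR5, SUV39H1 and SMYD5, with lower values in LM2-4175, and KDM6B, with a higher value. Without the added 1, SMYD2 (1.506-fold lower) and KDM6A (1.505-fold lower) also passed, narrowly and with bounds that overlapped. Under TPM scaling of FPKM + 1, KMT2D (0.61) and DOT1L (0.62) joined the 4, with bounds that overlapped. Then 6 members passed (12.5%), 3 with lower and 3 with higher values, against 21.7% of all genes tested.

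**Figure D1:**
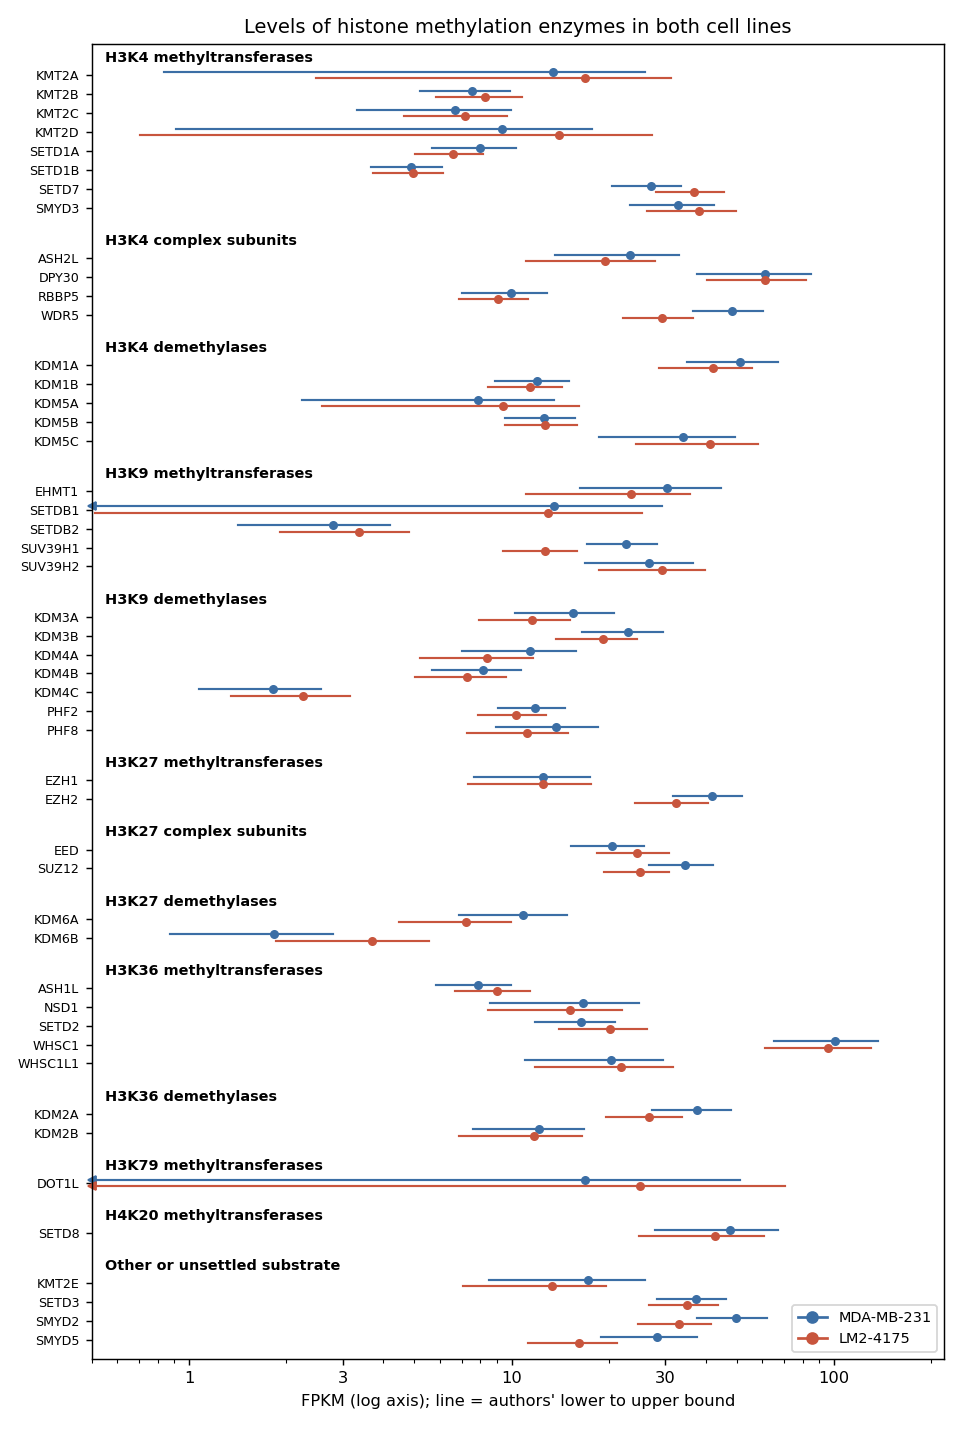
Level of each of the 48 members tested, in FPKM on a log axis, in MDA-MB-231 (blue) and LM2-4175 (red), grouped by the residue the enzyme acts on; points are the authors' values, lines run from the lower to the upper bound, and an arrowhead marks a bound below the axis. The bounds of the 2 lines lie apart for WDR5 and SUV39H1 only.

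Levels ran from about 2 to about 100 FPKM. WHSC1, the H3K36 methyltransferase also known as NSD2, was the highest member in both lines, at 101 FPKM (bounds 65.2 to 137) in MDA-MB-231 against 95.5 FPKM (61.0 to 130) in LM2-4175. DPY30, a small core subunit of the H3K4 methyltransferase complexes, followed at 61.3 FPKM in each line, with a change of 0.00. The third in MDA-MB-231 was KDM1A, the H3K4 demethylase LSD1, at 51.0 FPKM (34.9 to 67.1), with 42.3 FPKM (28.6 to 55.9) in LM2-4175. The bounds of these neighbours in the order overlapped, so the order among them is not resolved except for WHSC1 over KDM1A in LM2-4175, where they lay apart.

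The lowest member in both lines was KDM4C, a demethylase of H3K9 and H3K36, at 1.82 FPKM (1.07 to 2.57) in MDA-MB-231 against 2.25 FPKM (1.35 to 3.15) in LM2-4175. KDM6B stood beside it in MDA-MB-231, at 1.84 FPKM, and SETDB2, an H3K9 methyltransferase, was at 2.80 and 3.36 FPKM. These 3 and SETD1B were the 4 members under 5 FPKM in both lines. Most members were expressed at a middle level: 44 were at or over 5 FPKM in both lines and 9 were over 30 FPKM in both. The median member was at 16.5 FPKM in MDA-MB-231 and 14.6 FPKM in LM2-4175, and the median gene tested was at 11.9 and 11.6 FPKM. Across the 48 members the log2 levels of the 2 lines had a Pearson r of 0.95, given as a description over genes that are not replicates.

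WDR5 (ENSG00000196363.5) fell. It encodes the WD40 subunit shared by the MLL and COMPASS complexes, which write H3K4 methylation. Its level was 48.4 FPKM (36.6 to 60.3) in MDA-MB-231 against 29.3 FPKM (22.1 to 36.5) in LM2-4175, 1.65-fold lower, with a log2 change of -0.71. The bounds were barely apart, and the call was lost when the lines were scaled to the same FPKM sum (change -0.63) or the same median (change -0.66). SUV39H1 (ENSG00000101945.12) fell too. It encodes an H3K9me3 methyltransferase of constitutive heterochromatin. Its level was 22.7 FPKM (17.2 to 28.2) in MDA-MB-231 against 12.7 FPKM (9.42 to 16.0) in LM2-4175, 1.79-fold lower, with a log2 change of -0.79, which was the largest change of any member. This call was kept under both scalings. With a limit of 2-fold in place of 1.5-fold no member was called, and 6.13% of all genes were.

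A pair of members passed 1.5-fold on FPKM + 1 with bounds that overlapped. SMYD5 (ENSG00000135632.7), a SET and MYND domain protein, was at 28.3 FPKM (18.9 to 37.7) in MDA-MB-231 against 16.2 FPKM (11.3 to 21.2) in LM2-4175, 1.74-fold lower, with a log2 change of -0.77. KDM6B (ENSG00000132510.6), the H3K27 demethylase JMJD3, was at 1.84 FPKM (0.874 to 2.81) in MDA-MB-231 against 3.70 FPKM (1.86 to 5.55) in LM2-4175, with a log2 change of 0.73. Its ratio of 2.01 without the added 1 was the largest of all members, at one of the lowest levels.

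The sequences just upstream of the start sites of these 4 genes are shown because they are the members that passed 1.5-fold on FPKM + 1. They are RefSeq promoter sequences, located by an exact match in GRCh37 (hg19), the build of the deposited table, and each covers the 250 bases before a RefSeq start site, 5′ to 3′ on the strand of the gene. Capitals mark GGGCGG, the letters of an SP-type GC box, and CCAAT, those of an NF-Y box, on either strand (CCGCCC and ATTGG on the other). Where a gene had more than 1 entry, the one with the highest observed over expected CpG is shown.
WDR5, chr9:137000954-137001203, + strand: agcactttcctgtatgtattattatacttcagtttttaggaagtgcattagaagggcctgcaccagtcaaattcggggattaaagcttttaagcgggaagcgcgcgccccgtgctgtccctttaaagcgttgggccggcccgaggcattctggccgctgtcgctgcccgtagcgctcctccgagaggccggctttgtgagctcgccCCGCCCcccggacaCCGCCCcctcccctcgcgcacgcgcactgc
SUV39H1, chrX:48554875-48555124, + strand: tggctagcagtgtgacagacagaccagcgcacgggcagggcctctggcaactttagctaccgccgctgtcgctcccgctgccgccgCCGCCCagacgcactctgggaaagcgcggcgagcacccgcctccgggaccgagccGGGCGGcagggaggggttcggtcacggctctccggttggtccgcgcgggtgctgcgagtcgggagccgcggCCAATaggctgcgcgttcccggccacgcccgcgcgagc
SMYD5, chr2:73441123-73441372, + strand: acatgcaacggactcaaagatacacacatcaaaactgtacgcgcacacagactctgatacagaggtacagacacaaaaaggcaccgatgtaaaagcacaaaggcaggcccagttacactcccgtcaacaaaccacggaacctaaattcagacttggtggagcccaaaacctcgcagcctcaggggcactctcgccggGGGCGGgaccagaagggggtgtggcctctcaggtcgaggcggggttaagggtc
KDM6B, chr17:7737285-7737534, + strand: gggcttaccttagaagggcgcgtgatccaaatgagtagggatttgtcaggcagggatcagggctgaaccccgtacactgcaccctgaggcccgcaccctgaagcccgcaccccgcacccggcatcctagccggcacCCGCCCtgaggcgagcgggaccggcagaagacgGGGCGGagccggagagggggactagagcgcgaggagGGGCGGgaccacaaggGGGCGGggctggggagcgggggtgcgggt

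All 4 genes lie on the forward strand. The WDR5 start site shown is 717 bases inside the gene as GENCODE 44 bounds it (chr9:137000487-137025090), the SUV39H1 site 1180 bases inside its gene (chrX:48553945-48567407), and the SMYD5 site 23 bases inside its gene (chr2:73441350-73454349), while that of KDM6B is the first base of its gene (chr17:7737535-7758114). The KDM6B window held 4 GGGCGG and no CCAAT. The WDR5 window held 2 GGGCGG, the SUV39H1 window 2 GGGCGG and 1 CCAAT, and the SMYD5 window 1 GGGCGG. The GC content was 60.8% for WDR5, 73.6% for SUV39H1, 55.2% for SMYD5 and 70.4% for KDM6B. GGGCGG was thus found in all 4 windows shown, of the genes with lower and of the gene with higher values. Where a gene had more than 1 entry the window was picked by its CpG, and GGGCGG was in 73.4% of all member entries. The part of GGGCGG in the changes was not tested.

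The same letters were counted over the other members. RefSeq promoters (GRCh38.p14), searched on both strands over the same 250 bases before the start, were matched for 44 of the 49 members, with 64 entries. GGGCGG was found in the promoters of 36 members and in 73.4% of their entries, and in 42.6% of all 35116 promoters. CCAAT was found in 34.4% of member entries and 32.0% of all promoters. TATAAA was found in none of the member entries and in 10.7% of all promoters, and the palindromic NRF1 motif in none and in 1.03%. The E2F motif TTTCCCGC was found in KDM1B, SUZ12 and WHSC1, which is 4.69% of entries against 1.39% of all, and the other E2F letters searched (TTTGGCGC and TTTCGCGC) in no member entry. The remaining motifs were the E-box CACGTG (14.1% of member entries, 6.35% of all), the ETS motif CCGGAAG (7.81% and 8.52%) and the CREB motif TGACGTCA (3.12% and 1.65%). The median GC content was 67.2% for member entries and 58.0% for all, and the observed over expected CpG 0.876 and 0.558. Member entries were thus richer in GC at the median, but not each of them: the lowest was at 43.2% and the entry of SMYD5, at 55.2%, also lay under the median of all promoters. These are descriptions of letters and not of binding.

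**Figure D2:**
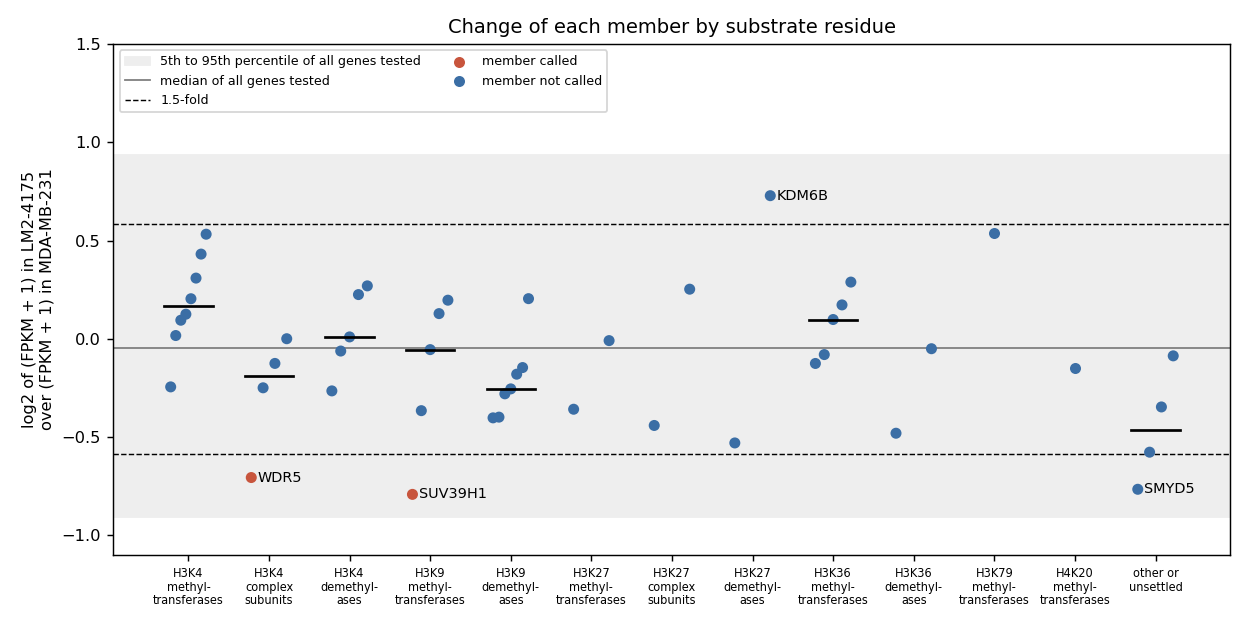
Log2 change of FPKM + 1 from MDA-MB-231 to LM2-4175 for the 48 members tested, grouped by residue and class; the short black lines are medians of groups of 3 or more, the grey band spans the 5th to the 95th percentile of all genes tested, and red points are the members called. Every member lies inside the grey band, and the dashed lines at 1.5-fold are passed by 4.

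The H3K4 methyltransferases had higher values in LM2-4175 for 7 of 8 members, with a median change of 0.16, and none was called. Among all genes tested 54.5% had lower values. SETD7, an H3K4 monomethyltransferase that also modifies other proteins, was at 27.02 FPKM (20.4 to 33.6) in MDA-MB-231 against 36.8 FPKM (27.96 to 45.6) in LM2-4175, with a change of 0.43. The enhancer monomethyltransferase KMT2D was at 9.37 FPKM (0.914 to 17.8) and 13.995 FPKM (0.703 to 27.3), with a change of 0.53. Both had overlapping bounds, and those of KMT2D were so wide that neither line's level was resolved. The same holds for KMT2A, at 13.4 FPKM (0.837 to 25.99) and 16.9 FPKM (2.48 to 31.2), with a change of 0.31. The changes of the others were 0.20 for SMYD3, 0.12 for KMT2B, 0.09 for KMT2C and 0.02 for SETD1B, and SETD1A was the exception at -0.24. The count stayed at 7 of 8 under both other scalings, but these raised every LM2-4175 value, so the 7 could not turn lower. SETD1A stayed lower, at -0.17 under TPM and -0.21 under median scaling.

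The core subunits of the MLL and COMPASS complexes, in which the KMT2 and SETD1 enzymes but not SETD7 and SMYD3 work, were lower in LM2-4175 for 3 of 4. WDR5, described above, was accompanied by ASH2L at 23.4 and 19.5 FPKM (change -0.25) and RBBP5 at 9.97 and 9.06 FPKM (change -0.12), while DPY30 was level. WDR5 was the only one of the 4 called. Among the 5 H3K4 demethylases 3 were higher and 2 lower, with a median change of 0.01 and none called. KDM1A had a change of -0.26 and its relative KDM1B one of -0.06, and of the JmjC enzymes KDM5C had 0.27, KDM5A 0.22 and KDM5B 0.01.

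H3K9 methyltransferases were split, with 2 of 5 higher. SUV39H1 fell, whereas its close relative SUV39H2 was at 26.7 FPKM (16.9 to 36.5) in MDA-MB-231 against 29.3 FPKM (18.7 to 39.9) in LM2-4175, with a change of 0.13. In MDA-MB-231 the 2 levels had overlapping bounds and a ratio of 1.18, and in LM2-4175 SUV39H2 was 2.31-fold higher than SUV39H1 with bounds apart. EHMT1, the partner of G9a, was at 30.4 FPKM (16.4 to 44.5) and 23.4 FPKM (11.1 to 35.7), a change of -0.37. SETDB1 was at 13.5 and 13.0 FPKM with a lower bound of 0 in MDA-MB-231, and its change of -0.05 turned positive under TPM scaling.

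The H3K9 demethylases had lower values in LM2-4175 for 6 of 7 members, with a median change of -0.25, and none was called. Lower values were found for 54.5% of all genes tested. KDM3A was at 15.5 FPKM (10.3 to 20.8) and 11.6 FPKM (7.93 to 15.2), a change of -0.40, and KDM4A at 11.4 FPKM (7.02 to 15.9) and 8.42 FPKM (5.21 to 11.6), also -0.40. These were the largest changes of the group, and their bounds overlapped. PHF8 had -0.28, KDM3B -0.25, PHF2 -0.18 and KDM4B -0.15, and KDM4C, the lowest in level, was the exception at 0.20. The count of 6 of 7 was found under both other scalings.

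Of the 6 genes for H3K27, 4 were lower in LM2-4175 as deposited and 3 under either other scaling. EZH2, the main catalytic subunit of PRC2, was at 41.9 FPKM (31.7 to 52.0) in MDA-MB-231 against 32.4 FPKM (24.2 to 40.7) in LM2-4175, a change of -0.36. SUZ12, its core partner, was at 34.4 FPKM (26.6 to 42.3) and 25.1 FPKM (19.3 to 30.9), a change of -0.44. The third core subunit, EED, which binds the H3K27me3 mark, had the opposite sign, at 20.5 and 24.6 FPKM and a change of 0.25. EZH1 was level at 12.6 and 12.5 FPKM. No PRC2 core gene was called, so their difference in sign is within the bounds.

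The 2 H3K27 demethylases had changes of opposite sign. KDM6A, the X-linked enzyme UTX, was at 10.9 FPKM (6.90 to 14.8) in MDA-MB-231 against 7.22 FPKM (4.48 to 9.97) in LM2-4175, a change of -0.53, and KDM6B, given above, had 0.73. KDM6A was 5.91-fold above KDM6B in MDA-MB-231, with bounds apart, and 1.95-fold above it in LM2-4175, with bounds that overlapped. Neither was called on its own.

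For H3K36, 3 of 5 methyltransferases were higher and both demethylases grouped here, KDM2A and KDM2B, were lower, and none was called. Each enzyme was grouped under a single residue. The KDM4 enzymes, some of which also act on H3K36, were therefore counted under H3K9. Their changes were -0.40 for KDM4A, -0.15 for KDM4B and 0.20 for KDM4C. SETD2, the H3K36me3 methyltransferase, had a change of 0.29, ASH1L 0.17 and WHSC1L1 0.10, while WHSC1 had -0.08 and NSD1 -0.13. KDM2A was at 37.6 FPKM (27.2 to 47.9) in MDA-MB-231 against 26.6 FPKM (19.6 to 33.7) in LM2-4175, a change of -0.48, with bounds that overlapped. KDM2B, also a subunit of a variant PRC1, was at 12.2 and 11.7 FPKM, and its change of -0.05 turned positive under TPM scaling, as did those of WHSC1 and KDM1B. EZH1 changed sign under TPM and median scaling.

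DOT1L, the H3K79 methyltransferase, was at 16.9 FPKM (0 to 51.1) in MDA-MB-231 against 25.0 FPKM (0 to 70.3) in LM2-4175. Its change of 0.54 was among the larger ones, and it cannot be read, because the bounds reached 0 in both lines. SETD8, the H4K20 monomethyltransferase, was at 47.5 FPKM (27.9 to 67.1) and 42.7 FPKM (24.8 to 60.7), a change of -0.15. The 4 proteins with another or an unsettled substrate all had lower values in LM2-4175. SMYD2, a methyltransferase of p53 and other proteins, was at 49.8 FPKM (37.6 to 61.9) and 33.0 FPKM (24.6 to 41.4), a change of -0.58, just inside the 1.5-fold limit. Without the added 1 it was 1.506-fold lower, just past that limit, with bounds that overlapped. KMT2E had -0.35 and SETD3, known as an actin histidine methyltransferase, -0.09, and SMYD5 is given above. All 4 stayed lower under both other scalings.

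By class, 13 of 22 methyltransferases, 2 of 6 complex subunits and 5 of 16 demethylases had higher values in LM2-4175, with medians of 0.10, -0.19 and -0.16. Under TPM scaling the counts were 16 of 22, 2 of 6 and 7 of 16. Of all genes tested, 54.5% were lower as deposited and 47.5% under TPM scaling. With 2 members called in all, the counts by class describe signs within the bounds.

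**Figure D3:**
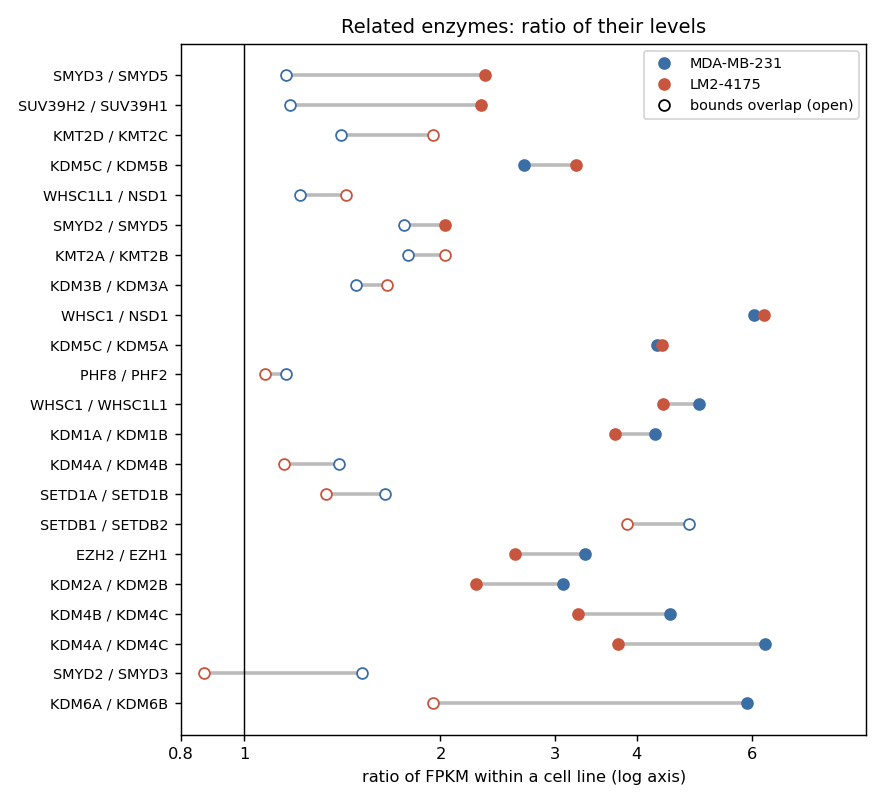
Ratio of the FPKM levels of related enzymes within MDA-MB-231 (blue) and within LM2-4175 (red), on a log axis, for 22 pairs; filled points have bounds apart in that cell line and open points have bounds that overlap. The ratio of SUV39H2 to SUV39H1 went from 1.18 to 2.31 and that of KDM6A to KDM6B from 5.91 to 1.95.

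Levels per length can be compared between related enzymes within a cell line. Of 22 pairs compared, 9 had bounds apart in both lines, 9 in neither, 3 in LM2-4175 only and 1 in MDA-MB-231 only. In each of the 9 pairs apart in both lines the same gene led in both. WHSC1 was 6.05-fold above NSD1 in MDA-MB-231 and 6.28-fold above it in LM2-4175, KDM5C 4.30-fold and 4.37-fold above KDM5A, and KDM1A 4.26-fold and 3.70-fold above KDM1B. EZH2 was 3.33-fold above EZH1 and then 2.60-fold above it. The pairs apart in LM2-4175 alone were SUV39H2 over SUV39H1, SMYD3 over SMYD5 (ratios of 1.16 and 2.34) and SMYD2 over SMYD5 (1.76 and 2.03). SMYD2 and SMYD3 exchanged their order, with a ratio of 1.51 in MDA-MB-231 and 0.869 in LM2-4175, but their bounds overlapped in both lines. Whether a ratio itself differed between the lines was not tested.

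**Figure D4:**
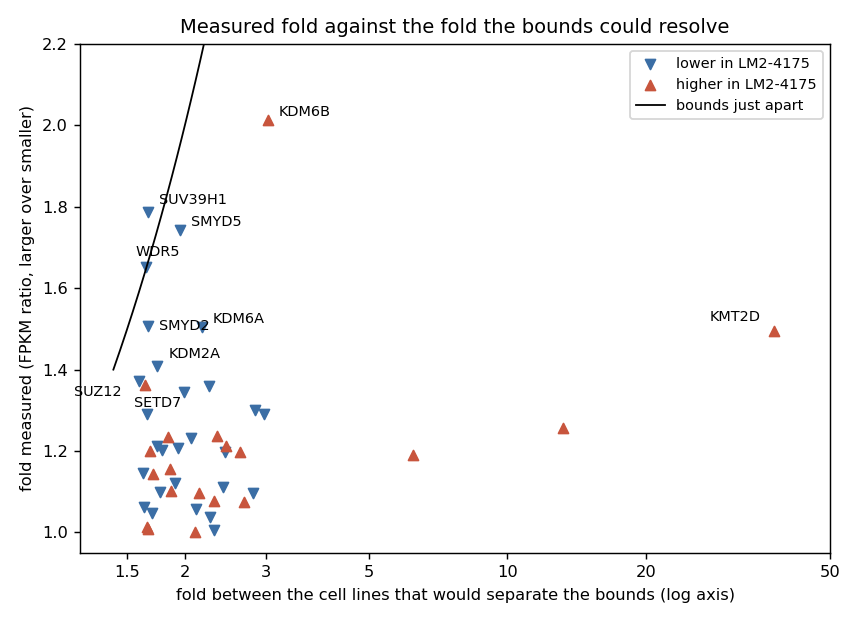
Fold between the cell lines measured for each member (larger FPKM over smaller) against the fold at which its bounds would come apart, for 46 members; blue triangles are lower and red triangles higher in LM2-4175, and the line marks bounds just apart. WDR5 and SUV39H1 reach the line, and DOT1L and SETDB1 are left out because no fold in the direction of their change would separate bounds that start at 0.

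The bounds set what could be seen. The distance from the level to its upper bound was 34.4% of the level for the median member in MDA-MB-231 and 33.1% in LM2-4175, somewhat narrower than the 38.6% and 38.1% of all genes tested. At the same relative widths the median member had to be 1.97-fold lower in LM2-4175 before its bounds came apart, and even SUZ12, the best resolved, had to be 1.59-fold lower. Bounds that would separate at 2-fold were found for 24 of 48 members, and 6 needed over 3-fold or could not separate. A difference under about 1.6-fold was therefore not detectable by this rule in any member, and the changes of SETD7, KDM2A, SUZ12 and EZH2 belong there. Such members are not shown to be equal in the 2 lines.

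Other genes may share reads with members. The exons of 24 members overlapped no other gene in GENCODE 44, and over 20% of exon bases overlapped another gene in 3, DPY30 (50.8%, with MEMO1 on the same strand), KDM4A (48.8%) and SUV39H1 (21.2%, with a gene on the opposite strand). WDR5 had 11.2%, also on the opposite strand. The values were quantified on GENCODE 19, in which the overlaps may differ and were not counted. Whether strand was used in counting is not given in the sources used here, so the part of these overlaps in the values was not tested. KMT2B was listed under 2 identifiers at 1 locus (chr19:36208875-36229781), ENSG00000105663.10 with the value used and ENSG00000272333.1 at 0.

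**Figure D5:**
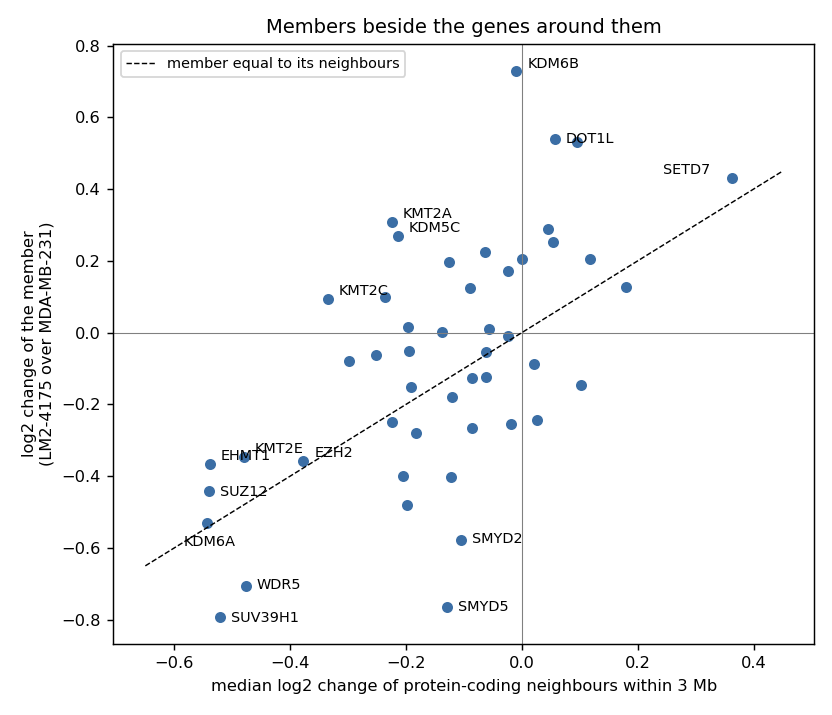
Log2 change of each of the 48 members against the median log2 change of the protein-coding genes tested within 3 Mb of it; the dashed line marks a member equal to its neighbours. The members at the left, with neighbour medians under -0.4, all lie below 0, and KDM6B lies far above its neighbours.

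The members were also set beside the genes around them on the chromosome. WDR5 had 68 protein-coding neighbours tested within 3 Mb, of which 63 were lower in LM2-4175 and 14 were called lower, with a median change of -0.48. SUV39H1 had 48, of which 43 were lower and 7 called lower, with a median of -0.52. Of all genes tested, 54.5% were lower and 4.61% were called lower. Both called members thus lie in stretches where nearly all genes had lower values. The member's own change was larger than the neighbour median in each case, by 0.23 and 0.27 on the log2 scale.

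Neighbour medians under -0.4 were found for 6 members, and all 6 had lower values: EHMT1 (-0.54, near WDR5 on 9q), KDM6A (-0.54), SUZ12 (-0.54), SUV39H1, KMT2E (-0.48) and WDR5. SETD7 had the highest neighbour median of any member, 0.36, with 11 of 15 neighbours higher, beside its own 0.43. The distance from the neighbour median was largest for KDM6B (neighbours -0.01), SMYD5 (-0.13) and KMT2A (-0.22, beside its own 0.31, which the wide bounds of this gene do not resolve). In all, 33 of 48 members had the sign of their neighbour median and 15 were within 0.1 of it. The neighbour median was below 0 for 37 members, of which 25 were lower, and above 0 for 11, of which 8 were higher. Since 28 of the 48 members were lower and most neighbour medians were below 0, many signs would match without any local relation. The Pearson r over the 48 was 0.61, a description, since several members share neighbours. Further examples are KDM2B, SETD1B and SETD8 on 12q24, ASH2L and WHSC1L1, and KDM5C and PHF8. The part of copy number or any other regional property in this was not tested.

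The wider set of partner and related genes was examined in the same way, over 50 symbols of which 47 were in the table and 42 were tested. The symbols not found (KDM7A, NO66 and EPOP) are other names of genes listed as JHDM1D, C14orf169 and C17orf96, so no gene was missing. Values were higher for 20 and lower for 22, the median change was -0.03, and 2 were called, both lower in LM2-4175 and both of PRC2, where 4.61% of all genes tested were called lower. RBBP7, a histone-binding subunit of PRC2 and of deacetylase complexes, fell from 195 FPKM (136 to 255) to 81.9 FPKM (60.3 to 103), a change of -1.25. PHF19, a Polycomb-like subunit that binds H3K36me3, fell from 118 FPKM (77.9 to 159) to 50.7 FPKM (33.6 to 67.9), a change of -1.21. Both calls were kept under every alternative, the 2-fold limit included. RBBP7 also lies among genes with lower values (median of 21 neighbours -0.78, 9 of them called lower), and PHF19 had a neighbour median of -0.34.

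The other 5 PRC2 partner genes tested had changes between -0.29 (RBBP4, the close relative of RBBP7) and 0.26 (MTF2, a relative of PHF19), with overlapping bounds. RBBP4 was at 97.0 FPKM (61.3 to 133) and 79.3 FPKM, so RBBP7 stood above it in MDA-MB-231 with bounds apart, and their bounds overlapped in LM2-4175. The largest higher values in LM2-4175 were those of JMJD1C, a relative of KDM3A, at 20.4 FPKM (12.6 to 28.3) and 33.5 FPKM (20.6 to 46.5), a change of 0.69, SETMAR at 0.62 and ZNF644, a partner of G9a, at 0.53. None of these was called. The third largest lower value was that of CXXC1, a COMPASS subunit that binds unmethylated CpG, at 23.9 FPKM (15.5 to 32.3) and 15.8 FPKM (9.62 to 21.9), a change of -0.57 that was not called.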

How the data were processed

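RNA was sequenced as paired reads of 150 bases from 2 libraries each of MDA-MB-231 and LM2-4175. The authors aligned reads to hg19 with TopHat 2.0 and quantified GENCODE 19 genes with Cufflinks, and the submitters' processing notes name TopHat2 and Cuffdiff. The labels and the methods name different RNA isolation kits. The deposited FPKM values are 1 per gene and cell line, with bounds. Whether library-to-library spread enters the bounds, and how many reads were counted per gene, are not given in the sources used here, so depth enters only through the bounds.

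A test with limma was planned if values per library were found. None were, so no p-value is given. Genes with a usable status in both lines and a mean of at least 0.5 FPKM were kept, 1 was added before log2, and a gene was called at 1.5-fold with bounds apart. Alternatives changed the added value, the filter, the fold, the bounds or the scaling. Positions are from GENCODE 44 on GRCh37. Members, gene lists and rules were chosen with earlier results of these data known. All 49 members could be named, with full values for those called, the 10 largest changes, the 3 highest and 3 lowest levels, and SETD7 and KDM2A. Of the wider list, those called and the 3 largest changes each way were named. RBBP4 and MTF2, and the full values of members such as EHMT1, EZH2, KDM3A, KDM4A, SUV39H2, EED and SETD8, go beyond that rule, for comparison with relatives and partners. One marker gene is not reported here. Python 3.11.15, pandas 2.3.3, NumPy 2.4.6 and Matplotlib 3.10.9 were used.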

Additional observations from a re-analysis of the deposited data

How the results depend on the processing

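Of 9 alternatives, 4 changed the number of members called lower in LM2-4175, which was 2: it was 1 under TPM scaling, 1 under median scaling (SUV39H1 was kept in each and WDR5 lost), 0 with a fold of at least 2 and 3 with the fold alone (SMYD5 was added). With the fold alone, 1 member was called higher (KDM6B) and 2 genes of the wider list (JMJD1C and SETMAR). TPM scaling raised changes by up to 0.08 and median scaling by up to 0.04 on the log2 scale. The median change of the members ran from -0.11 with a mean of at least 5 FPKM to 0.01 under TPM scaling, so its sign is not settled. RBBP7 and PHF19 were called under all 9. No paired analysis was possible because the table combines the libraries of a cell line in 1 value, and for the same reason no replicate could be left out.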

Other observations

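EHMT2 was not alone in being listed at 0. Of the 194 protein-coding genes within 3 Mb of it on chromosome 6 (gene at chr6:31847536-31865475, in the region of the major histocompatibility complex), 138 were listed at 0 in both lines, which is 71.1%. On the rest of chromosome 6 this was so for 72 of 794 genes, or 9.07%. PHF1, a PRC2 accessory gene of the same region, was at 0.0160 FPKM in MDA-MB-231 and 0.0125 FPKM in LM2-4175. The zeros of EHMT2 therefore come with those of its surroundings, and whether they reflect the quantification or the cells was not tested.

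The 4 members on the X chromosome did not have 1 direction. SUV39H1, KDM6A and PHF8 had lower values in LM2-4175 and KDM5C a higher one, while 175 of 390 protein-coding genes tested on X were lower, with a median change of 0.10. On chromosome 9, 335 of 488 were lower, with a median of -0.20, and of the 4 members there WDR5, EHMT1 and PHF2 had lower values and KDM4C, on the other arm, a higher one.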
